A study of Homo sapiens with 21 samples.

Results

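The 10 genes that encode receptors for islet peptides and fatty acids were followed across libraries of human stem cell-derived islets: GLP1R, GIPR, GCGR, FFAR1, SSTR1, SSTR2, SSTR3, SSTR5, GHSR and NPY1R. They were picked by gene symbol from a table of read counts for 62699 genes, and all 10 were found and passed the filter on low counts that left 25884 genes for testing. GHSR passed it with at most 15 counts in a library. The islets were made from H1, an established human embryonic stem cell line, either unedited (WT) or with both copies of ISL1, PAX6 or PDX1 knocked out. These genes encode transcription factors of pancreatic endocrine cells. On day 11 of differentiation the cells received a lentivirus that carried ISL1 together with blue fluorescent protein (BFP), or BFP alone. On day 18 the BFP-positive cells were sorted and their RNA was sequenced.

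The 21 libraries form 8 groups. WT with the BFP vector, WT with the ISL1 vector and PDX1-/- with the ISL1 vector have 2 libraries each. ISL1-/- with either vector, PAX6-/- with either vector and PDX1-/- with the BFP vector have 3 each. Every group therefore shares the H1 background, a lentiviral infection, the BFP gate and the day of harvest, and no group was left without virus. The labels do not say how many clones of each genotype were used. Library totals ran from 36807615 to 60199880 counts, with a median of 50398068. Nothing in the labels says that replicates came from separate cultures, so p-values measure the spread between these libraries.

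All 10 receptors are G protein-coupled receptors. GLP1R, GIPR and GCGR bind the incretins GLP-1 and GIP and the hormone glucagon, and they raise cyclic AMP through the G protein Gs, which in beta cells adds to glucose-stimulated insulin release. FFAR1, also called GPR40, binds long-chain fatty acids and signals mainly through Gq. The somatostatin receptors, the neuropeptide Y receptor NPY1R and their relatives signal mainly through Gi, which lowers cyclic AMP and restrains hormone release, whereas GHSR is the receptor for the stomach and islet hormone ghrelin. In the deposited table (GRCh38) FFAR1 (ENSG00000126266.4) lies at chr19:35347902-35353864 and GIPR (ENSG00000010310.9) at chr19:45668221-45683722, on the same chromosome. GLP1R (ENSG00000112164.6) lies at chr6:39048781-39091303, GCGR (ENSG00000215644.10) at chr17:81804132-81814008 and SSTR2 (ENSG00000180616.9) at chr17:73165010-73176633. SSTR5 (ENSG00000162009.9) lies at chr16:1072747-1081454 and NPY1R (ENSG00000164128.7) at chr4:163323962-163344832, and counts cover the whole gene's exons in each case.

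The labels were first checked against the targeted genes. ISL1 was at 73.7 to 82.4 CPM (the usual unit of read counts scaled to library size, here with TMM-scaled library sizes) in ISL1-/- with the BFP vector and at 306 to 519 CPM in WT with that vector. It was also below WT in PAX6-/- (133 to 236 CPM) and PDX1-/- (132 to 173 CPM) with that vector. ISL1 was called lower in PDX1-/- (log2 fold change -1.43, SE 0.39, edgeR adjusted p = 0.0254) and not in PAX6-/- (-1.10, SE 0.39, adjusted p = 0.112). With the ISL1 vector it was at 71.6 to 96.8 CPM in ISL1-/- and 337 to 361 CPM in WT, so the count of ISL1 did not separate the vectors. PAX6 was at 99.5 to 166 CPM in PAX6-/- and 140.3 to 232 CPM in WT, and PDX1 at 103 to 116 CPM in PDX1-/- and 80.0 to 102 CPM in WT, all with the BFP vector. Counts over a whole gene do not check a small deletion, and for the vector "ISL1-labelled" and "BFP-labelled" are used below. Of the 21 libraries, 2 stood apart, each ISL1-labelled. Replicate 3 of PAX6-/- and replicate 4 of PDX1-/- had 3.16% and 3.84% of counts on mitochondrial genes, where the other 19 had 1.28% to 1.93%. Most differences between groups are given with and without them, and the correlations below only with all 21 libraries. Without them, PDX1-/- with the ISL1 vector is left with replicate 2 alone and has no spread of its own. For that group only effect sizes are then given.

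The promoter windows of 4 receptors are shown because FFAR1, NPY1R and SSTR5 are the receptors whose differences between PDX1-/- and WT held when single libraries were left out, and because SSTR1 had a CTAATG site; they were chosen after the values were seen. Each is the RefSeq window of GRCh38.p14 from 250 bases before to 50 after the annotated start, printed 5' to 3' on the gene's strand, with TAAT and its reverse complement in capitals. TAAT is the core of many homeodomain sites, and ISL1, PAX6 and PDX1 all carry homeodomains. The windows are FFAR1 at chr19:35347652-35347951 (plus strand), SSTR1 at chr14:38207654-38207953 (plus), SSTR5 at chr16:1078576-1078875 (plus) and NPY1R at chr4:163332547-163332846 (minus).
FFAR1: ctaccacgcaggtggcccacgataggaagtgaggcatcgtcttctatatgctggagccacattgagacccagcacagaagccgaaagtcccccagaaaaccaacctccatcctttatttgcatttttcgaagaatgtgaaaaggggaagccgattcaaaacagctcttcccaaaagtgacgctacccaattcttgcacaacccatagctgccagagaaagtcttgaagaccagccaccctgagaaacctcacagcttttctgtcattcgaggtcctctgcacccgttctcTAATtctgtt
SSTR1: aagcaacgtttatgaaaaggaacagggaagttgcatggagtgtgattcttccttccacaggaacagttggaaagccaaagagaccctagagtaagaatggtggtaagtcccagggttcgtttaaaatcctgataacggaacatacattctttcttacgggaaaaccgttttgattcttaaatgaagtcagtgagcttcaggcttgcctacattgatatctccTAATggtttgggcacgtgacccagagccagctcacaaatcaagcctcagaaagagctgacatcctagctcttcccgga
SSTR5: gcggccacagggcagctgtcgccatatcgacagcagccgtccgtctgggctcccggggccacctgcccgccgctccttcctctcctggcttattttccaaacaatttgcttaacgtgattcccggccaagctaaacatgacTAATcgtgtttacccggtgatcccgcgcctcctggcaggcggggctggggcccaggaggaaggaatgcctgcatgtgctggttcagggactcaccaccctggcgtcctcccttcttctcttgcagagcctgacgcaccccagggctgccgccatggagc
NPY1R: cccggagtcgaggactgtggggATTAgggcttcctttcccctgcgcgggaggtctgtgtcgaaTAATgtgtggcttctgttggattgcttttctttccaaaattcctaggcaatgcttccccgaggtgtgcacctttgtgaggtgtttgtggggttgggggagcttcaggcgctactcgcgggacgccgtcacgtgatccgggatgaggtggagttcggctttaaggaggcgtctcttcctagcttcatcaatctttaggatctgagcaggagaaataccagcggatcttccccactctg
The window of NPY1R held 2 TAAT cores and those of FFAR1, SSTR1 and SSTR5 held 1 each, while the windows of the other 6 receptors held 0. Among 35114 such windows of 300 bases, 50.2% had at least 1 TAAT on either strand. The longer letters TAATTA, which contain TAAT, were in none of the 10 receptors' windows and in 4.84% of all windows. CTAATG, which also contains TAAT, was in the SSTR1 window alone among the members and in 6.49% of all windows. The RefSeq start of FFAR1 and SSTR1 was the start of the gene in the deposited table, whereas that of SSTR5 lay 6079 bases and that of NPY1R 12236 bases from it. A match describes letters only, and its absence says nothing about binding.

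Per length of exon, SSTR2 was the highest receptor in every library. Its level ran from 39.8 to 107 CPM per kb, with a median of 57.3. NPY1R followed with a median of 14.9 CPM per kb, then GCGR (9.39), SSTR1 (7.97) and GLP1R (7.50). GIPR (3.27), SSTR5 (2.62), FFAR1 (2.61) and SSTR3 (0.744) were lower, and the median of GHSR was 0. These medians are over all 21 libraries on the CPM per kb scale. The ranges of NPY1R, GCGR, SSTR1 and GLP1R overlapped, so their order held for the medians and not for each library. FFAR1 had the widest spread among the members with more than 15 counts, from 0.00693 to 15.1 CPM per kb.

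**Figure D1:**
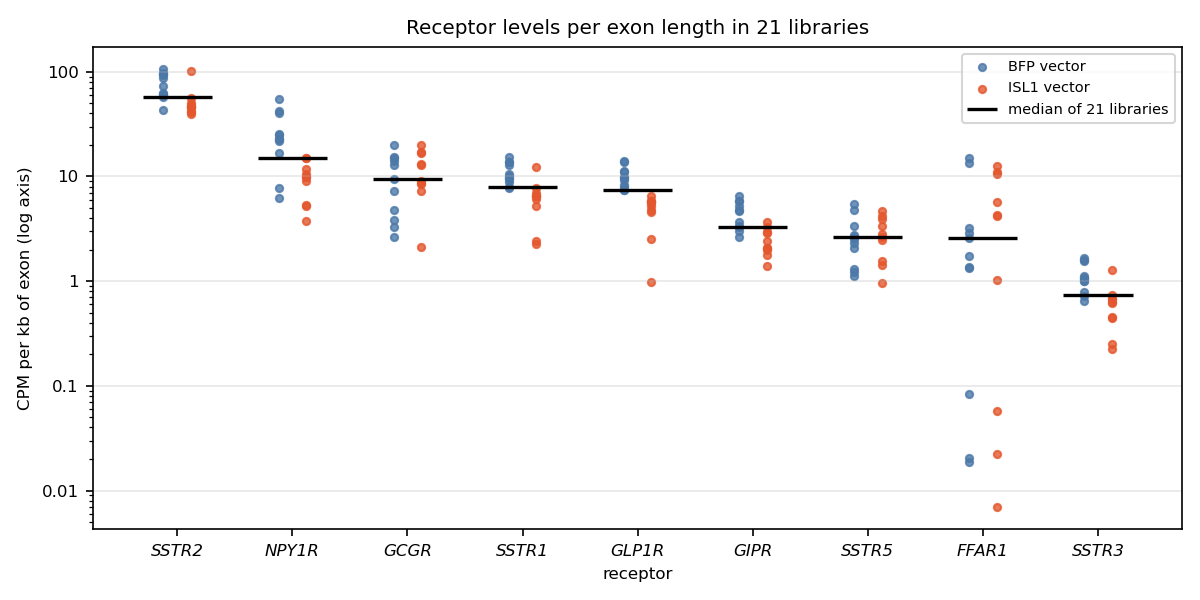
Level of 9 receptors in each of 21 libraries, in CPM per kb of exon on a log axis, by vector. The bars mark the medians, from 57.3 for SSTR2 to 0.744 for SSTR3, and the low points of FFAR1 are the PAX6-/- libraries.

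Differences between groups were called with edgeR's quasi-likelihood test at a Benjamini-Hochberg adjusted p under 0.05, over all 25884 genes, with all libraries in a single fit. Some difference among the 8 groups was called for 9 of the 10 receptors, all but GHSR, and for 22.5% of all tested genes. DESeq2 and limma voom called all 10, beside 35.6% and 58.6% of all genes. With the 2 libraries that stood apart left out, the edgeR count was again 9 of 10, beside 48.5% of all genes. In bulk RNA of sorted cells, fewer cells of a type and less RNA per cell cannot be told apart, and this holds for each difference below.

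**Figure D2:**
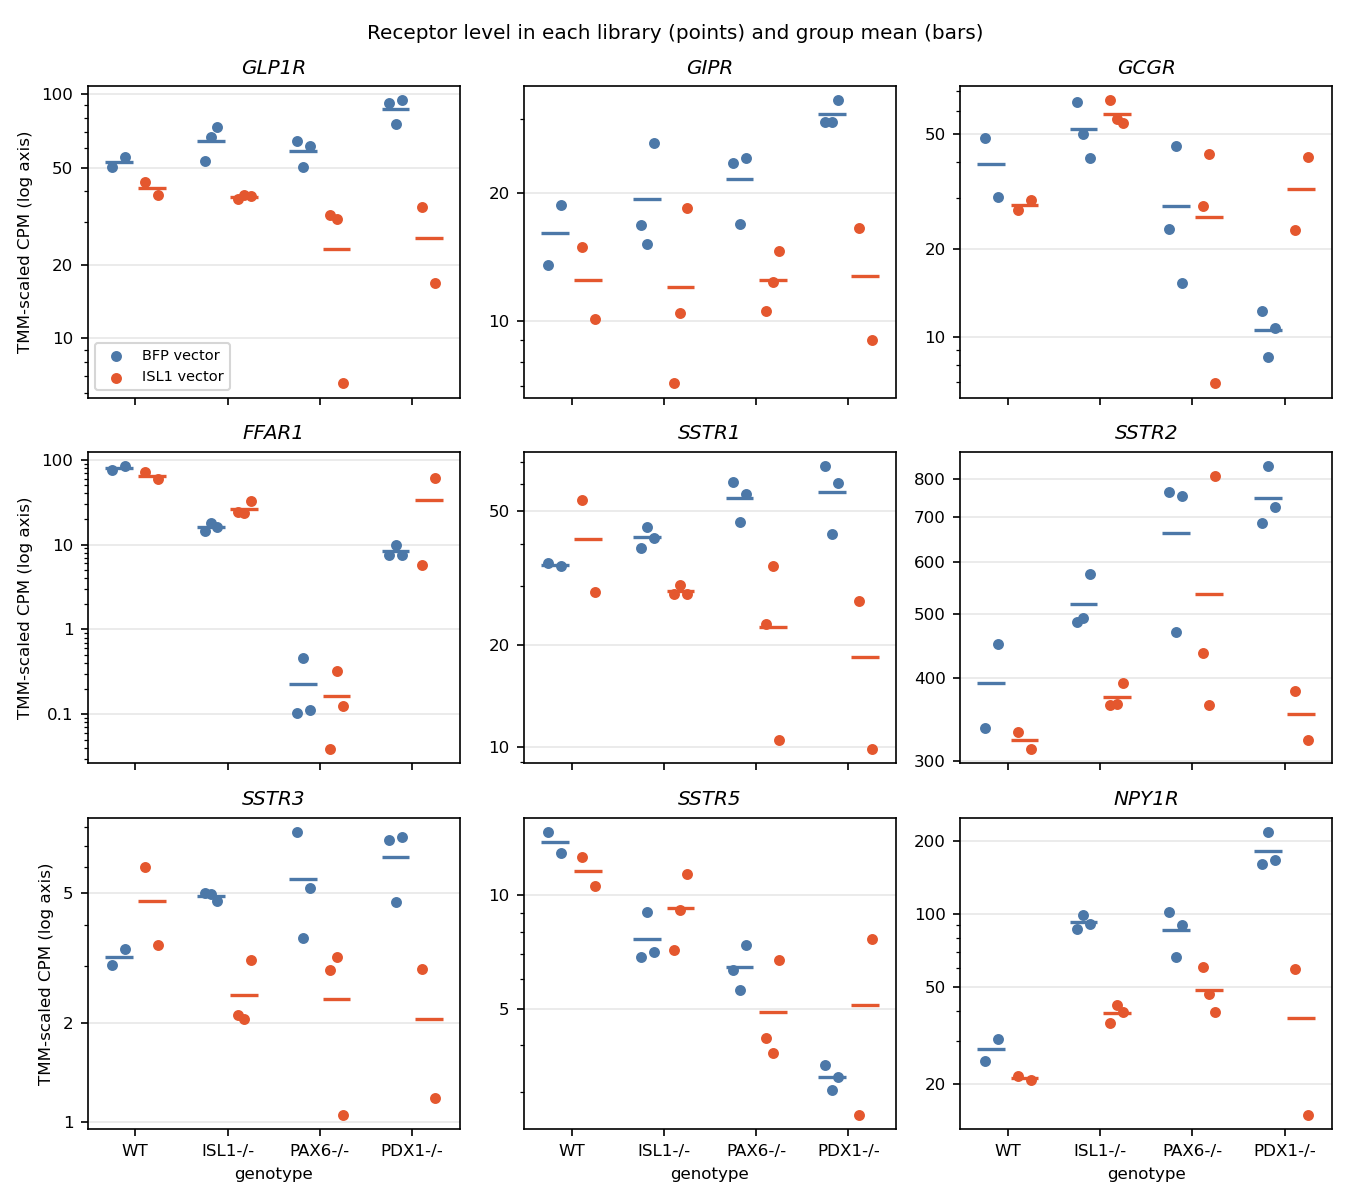
TMM-scaled CPM of 9 receptors (log axes, with a range of its own in each panel) in every library, by genotype and vector. Points are libraries and bars are group means, and FFAR1 in PAX6-/- lies under 0.5 CPM in all 6 libraries.

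With the BFP vector, FFAR1 was lower than WT in all 3 knockouts and NPY1R was higher in all 3. In ISL1-/- those were the 2 receptors called, beside 5.59% of all genes (1.67% higher and 3.92% lower). In PAX6-/- FFAR1 and NPY1R were also the 2 called, beside 5.51% (2.25% higher and 3.26% lower). In PDX1-/- FFAR1, GCGR and SSTR5 fell and NPY1R rose, 4 of 10 beside 9.68% (4.03% higher and 5.65% lower). The median log2 fold change of the 10 receptors was 0.28, 0.54 and 0.72 in these knockouts, beside 0.02, 0.03 and 0.03 over all tested genes. The 3 comparisons share the 2 WT libraries, so they are not independent. Groups of 2 and 3 libraries can separate by chance. Where libraries are said below to lie all above or below WT, the share of all genes that did so was not computed. With the 2 libraries that stood apart left out of the fit, neither of which belongs to these groups, the counts were 3, 4 and 9 of 10, beside 23.5%, 23.5% and 27.6% of all genes.

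The incretin receptor GLP1R, the target of the GLP-1 medicines, was at 50.1 and 55.0 CPM in WT with the BFP vector. It was at 53.1, 66.5 and 73.0 CPM in ISL1-/-, at 64.1, 50.2 and 61.4 CPM in PAX6-/- and at 91.6, 75.1 and 94.3 CPM in PDX1-/-. Only the PDX1-/- libraries lay all above both WT libraries. The log2 fold change against WT was 0.29 (SE 0.43, adjusted p = 0.806) in ISL1-/-, 0.16 (SE 0.43, adjusted p = 0.907) in PAX6-/- and 0.73 (SE 0.44, adjusted p = 0.373) in PDX1-/-. None passed the edgeR test. For PDX1-/- the value was 0.71 (adjusted p = 0.00132) without the 2 libraries that stood apart.

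GIPR, the receptor for the gut hormone GIP, was at 13.5 and 18.7 CPM in WT. The ISL1-/- libraries held 16.8, 15.2 and 26.2 CPM, the PAX6-/- libraries 23.6, 16.9 and 24.2 CPM, and the PDX1-/- libraries 29.4, 29.5 and 33.2 CPM. As for GLP1R, PDX1-/- alone was clear of WT. Its log2 fold change was 0.93 (SE 0.37) and did not pass edgeR's test (adjusted p = 0.135); with the 2 libraries left out it was 0.91 (adjusted p = 0.0417).

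GCGR, the glucagon receptor, went the other way in PDX1-/-. Its level was 48.2 and 30.4 CPM in WT, and 12.3, 8.52 and 10.8 CPM in PDX1-/-, with no overlap. The log2 fold change was -1.90 (SE 0.52, edgeR adjusted p = 0.0267), and the call was lost when any 1 of the 5 libraries was left out (highest adjusted p = 0.262). It held without the 2 libraries that stood apart, at -1.92 (adjusted p = 0.000319). ISL1-/- held 64.3, 49.8 and 41.3 CPM and PAX6-/- 23.5, 45.3 and 15.4 CPM, both overlapping WT. The direct comparison of ISL1-/- with PDX1-/- gave 2.30 (SE 0.49, edgeR adjusted p = 0.00996), 1 of the 2 receptors called there, both higher in ISL1-/-, beside 5.07% of all genes (2.73% higher and 2.34% lower). That call was lost without replicate 2 or replicate 3 of PDX1-/-, at an adjusted p of up to 0.0677.

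FFAR1, the fatty acid receptor, had the largest differences of the 10. With the BFP vector it was at 75.4 and 84.5 CPM in WT and at 14.6, 17.9 and 16.0 CPM in ISL1-/-. It was at 7.60, 9.83 and 7.45 CPM in PDX1-/-, and at 0.104, 0.464 and 0.113 CPM in PAX6-/-, which were 5, 26 and 6 counts. The 4 groups did not overlap, in the order WT, ISL1-/-, PDX1-/-, PAX6-/-. Against WT the log2 fold change in PAX6-/- was -8.42 (SE 0.84, edgeR adjusted p = 2.43e-05) and in PDX1-/- -3.27 (SE 0.66, adjusted p = 0.00448). Both calls were kept when any 1 of their 5 libraries was left out. In ISL1-/- it was -2.31 (SE 0.64, edgeR adjusted p = 0.0424), a call lost without any 1 of its 5 libraries, at an adjusted p of up to 0.193, and held at 2.95e-05 without the 2 libraries that stood apart. PAX6-/- was also lower than the other knockouts. ISL1-/- exceeded it by 6.11 (SE 0.76, edgeR adjusted p = 0.000154), the 1 receptor called in that comparison beside 2.46% of all genes. PAX6-/- minus PDX1-/- was -5.15 (SE 0.74, edgeR adjusted p = 0.000589), again the 1 receptor called, beside 3.04%. ISL1-/- and PDX1-/- did not pass the test against each other (0.96, SE 0.58, adjusted p = 0.425), and were called at 1.00 (adjusted p = 0.0135) without the 2 libraries that stood apart. Without the 2 libraries that stood apart, the comparisons of ISL1-/- with PAX6-/-, ISL1-/- with PDX1-/- and PAX6-/- with PDX1-/- called 1, 6 and 5 of the 10 receptors, beside 8.74%, 21.7% and 16.3% of all genes.

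The somatostatin receptors divided. SSTR2, the dominant subtype, supplied 78.5% of the summed CPM per kb of the 5 SSTR genes in WT with the BFP vector, 83.1% in ISL1-/-, 84.1% in PAX6-/- and 85.9% in PDX1-/- (ratios of group means). Its level was 336 and 450.4 CPM in WT, 487, 494 and 574 CPM in ISL1-/-, 764, 470.4 and 753 CPM in PAX6-/- and 686, 837 and 726 CPM in PDX1-/-. Every knockout library was above both WT libraries. The log2 fold changes were 0.40 (SE 0.29, edgeR adjusted p = 0.507), 0.75 (SE 0.29, adjusted p = 0.157) and 0.93 (SE 0.29, adjusted p = 0.0535), and none was called. With those 2 libraries left out, PAX6-/- gave 0.74 (adjusted p = 0.00491) and PDX1-/- 0.91 (adjusted p = 0.000880). Exons of SSTR2 overlap an unnamed gene on the same strand that had at most 20 counts.

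SSTR5, one of the subtypes through which somatostatin restrains insulin release, was the member of its family that fell. It was at 14.8 and 13.0 CPM in WT and at 3.55, 3.04 and 3.30 CPM in PDX1-/-. In ISL1-/- it was at 6.85, 9.03 and 7.08 CPM and in PAX6-/- at 6.33, 5.62 and 7.40 CPM. All 9 knockout libraries lay below both WT libraries, and those of PDX1-/- lay lowest. The log2 fold change in PDX1-/- was -2.07 (SE 0.35, edgeR adjusted p = 0.00140), kept when any 1 of the 5 libraries was left out. In ISL1-/- it was -0.86 (SE 0.34, adjusted p = 0.167) and in PAX6-/- -1.11 (SE 0.34, adjusted p = 0.0714), neither called, with adjusted p of 0.00449 and 0.000466 without the 2 libraries that stood apart. ISL1-/- exceeded PDX1-/- by 1.21 (SE 0.32, edgeR adjusted p = 0.0338), which was lost without any 1 of the 6 libraries, at an adjusted p of up to 0.141.

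SSTR1 and SSTR3, the other measured subtypes, had no call between a knockout and WT with the BFP vector. SSTR1 was at 35.0 and 34.2 CPM in WT, 38.9, 44.8 and 41.5 CPM in ISL1-/-, 60.8, 46.3 and 56.2 CPM in PAX6-/- and 68.0, 42.6 and 60.6 CPM in PDX1-/-. SSTR3 was at 3.01 and 3.39 CPM in WT, 5.01, 4.97 and 4.73 CPM in ISL1-/-, 7.72, 3.66 and 5.20 CPM in PAX6-/- and 7.29, 4.70 and 7.43 CPM in PDX1-/-. Both were above WT in all 9 knockout libraries, a separation for which the share of all genes was not computed. The edgeR adjusted p of these differences was 0.196 or more for SSTR3 and 0.348 or more for SSTR1, so none passed the test. With the 2 libraries that stood apart left out, both were called in PDX1-/-, SSTR1 at 0.70 (adjusted p = 0.0333) and SSTR3 at 1.00 (adjusted p = 0.0236), and neither in ISL1-/- or PAX6-/-. SSTR4, the remaining gene of the family and not among the 10, held at most 0.0536% of the family's summed level in a group.

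GHSR was close to absent. It had 0 counts in 11 of 21 libraries, including all 7 ISL1-labelled libraries of WT, ISL1-/- and PDX1-/-, where 0 allows up to 3 counts, or 0.0499 to 0.0889 CPM. It had 15, 2 and 8 counts in PAX6-/- with the BFP vector and 2, 13 and 3 with the ISL1 vector. The other libraries with a count had 6 in WT, 4 and 4 in ISL1-/- and 2 in PDX1-/-, all with the BFP vector. PAX6-/- was thus the genotype in which all 6 libraries had a count. Its ligand gene GHRL, ghrelin, was at 3258 CPM on average (SD 656, n = 3) in PAX6-/- and at 79.1 CPM (SD 6.43, n = 2) in WT with the BFP vector, a log2 fold change of 5.36 (SE 0.75, edgeR adjusted p = 0.000627). No comparison of GHSR passed the edgeR test (BFP vector, PAX6-/- minus WT 1.17, SE 1.30, adjusted p = 0.720). Over all 8 groups together, DESeq2 and limma voom did call a difference for it. With at most 15 counts in a library, depth limits what could be detected.

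NPY1R, a Gi-coupled receptor for neuropeptide Y and peptide YY, rose in every knockout with the BFP vector. It was at 24.9 and 30.6 CPM in WT, at 86.8, 99.3 and 91.1 CPM in ISL1-/-, at 102, 66.5 and 90.1 CPM in PAX6-/- and at 160.2, 218 and 167 CPM in PDX1-/-. The knockout libraries were all above WT, and those of PDX1-/- were all above the other knockouts, a gap that was not called (edgeR adjusted p = 0.108 against ISL1-/- and 0.101 against PAX6-/-). The log2 fold changes were 1.74 (SE 0.40, edgeR adjusted p = 0.0148), 1.64 (SE 0.39, adjusted p = 0.0213) and 2.71 (SE 0.42, adjusted p = 0.000757) in that order. The call in PDX1-/- was kept without any 1 of its 5 libraries. That in ISL1-/- was lost without either WT library (adjusted p up to 0.179) and that in PAX6-/- without replicate 1 or 3 of PAX6-/- or either WT library (up to 0.227). All 3 were called without the 2 libraries that stood apart, at adjusted p from 6.13e-08 to 7.38e-06. NPY1R shares 528 exonic bases with NPY5R on the opposite strand, and the strand setting of the counting is not given in the sources used here. NPY5R rose as well, by 2.13 (SE 0.36, edgeR adjusted p = 0.00170) in ISL1-/- and 1.83 (SE 0.35, adjusted p = 0.00638) in PAX6-/-, from 3.75 to 16.3 and 13.3 CPM on average. In PDX1-/-, where NPY1R was highest, NPY5R averaged 7.77 CPM, and ISL1-/- exceeded it by 1.07 (SE 0.29, edgeR adjusted p = 0.0431). The part of the overlap in the NPY1R counts was not tested.

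**Figure D3:**
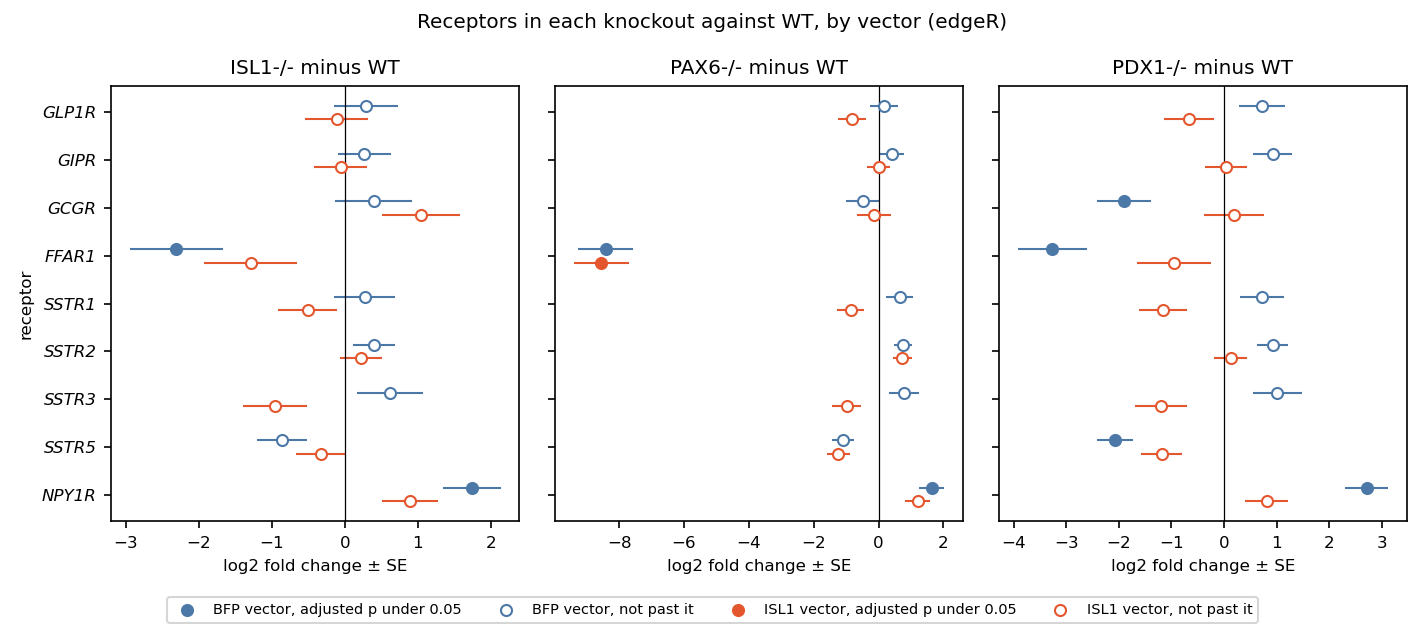
Log2 fold change of 9 receptors in each knockout against WT with its standard error, from the edgeR fit, for the BFP and the ISL1 vector. Filled points passed an adjusted p of 0.05; FFAR1 in PAX6-/- stood at -8.42 with the BFP vector and -8.56 with the ISL1 vector, each on an x axis of its own range.

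The cell type markers differed between these groups as well. The summed level of 8 beta cell markers, among them INS, was 5963 to 7422 CPM in WT with the BFP vector, 2034 to 2664 CPM in ISL1-/-, 846 to 1146 CPM in PAX6-/- and 518 to 581 CPM in PDX1-/-. Of these 8 markers 2, 3 and 4 fell in the 3 knockouts and 1, 0 and 1 rose, beside 5.59%, 5.51% and 9.68% of all genes called in either direction. G6PC2 was at 0 in at least 1 PAX6-/- library and no beta marker was at 0 elsewhere. The summed level of 6 enterochromaffin markers, genes of serotonin-producing cells such as TPH1, was 854 to 991 CPM in WT, 2183 to 2929 CPM in ISL1-/-, 1322 to 2140 CPM in PAX6-/- and 3598 to 4248 CPM in PDX1-/-, with 4, 1 and 5 of them called higher. The sum of 8 alpha cell markers, among them GCG, was 42448 to 56960 CPM in WT, 966 to 1171 CPM in ISL1-/-, 1606 to 2247 CPM in PAX6-/- and 17095 to 21870 CPM in PDX1-/-, with 6, 4 and 3 called lower and none at 0. The sum of 4 epsilon cell markers, among them GHRL, was 214 to 269 CPM in WT, 142 to 152 CPM in ISL1-/-, 3095 to 4652 CPM in PAX6-/- and 235 to 294 CPM in PDX1-/-, with 3 called higher in PAX6-/-, 1 lower in PDX1-/- and none at 0. Among these BFP-labelled groups FFAR1 and SSTR5 were low where beta markers were low, and NPY1R was high where enterochromaffin markers were high. In ISL1-labelled replicate 4 of PDX1-/- the enterochromaffin sum was 1423 CPM, above WT, and NPY1R was at 14.9 CPM, its lowest of the 21 libraries. FFAR1, however, was lowest in PAX6-/- and the beta sum in PDX1-/-. Other sums had the same patterns. The pan-endocrine sum was 49681 to 55807 CPM in PDX1-/-, the highest, and 22850 to 27821 CPM in WT. The delta cell sum was 581 to 763 CPM in WT and 232 to 390 CPM in the knockouts. Sums of pancreatic polypeptide cell and hepatic markers were also lower in all 3. The endocrine progenitor sum was higher in all 3, at 786 to 2445 CPM against 598 to 747 CPM in WT. The part of cell makeup in the receptor differences was not tested.

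With the ISL1 vector the same knockouts were compared with WT through other libraries. FFAR1 in PAX6-/- was the 1 receptor called in that genotype, beside 3.56% of all genes. In ISL1-/- edgeR called 0 receptors beside 3.72% of all genes, with 2 at an unadjusted p under 0.05 (beside 17%), 0 by DESeq2 (8.47%) and 4 by limma voom (24.5%). In PDX1-/- it called 0 beside 0.634%, with 3 at an unadjusted p under 0.05 (beside 16.1%), 0 by DESeq2 (2.71%) and 0 by limma voom (0%). Without the 2 libraries that stood apart the counts were 4, 3 and 3 of 10 for ISL1-/-, PAX6-/- and PDX1-/-, beside 19.5%, 12.2% and 6.66%.

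FFAR1 with the ISL1 vector was at 71.0 and 59.3 CPM in WT, from 23.7 to 32.2 CPM in the 3 libraries of ISL1-/- and 0.0388, 0.325 and 0.126 CPM in PAX6-/-, the last being 2, 21 and 6 counts. PAX6-/- was again far below WT, by -8.56 (SE 0.85, edgeR adjusted p = 2.36e-05), kept without any 1 of its 5 libraries. ISL1-/- lay below WT without overlap, at -1.29 (SE 0.63), and was not called (edgeR adjusted p = 0.313). PDX1-/- held 5.80 CPM in replicate 2 and 61.6 CPM in replicate 4. The first was below the 3 BFP-labelled PDX1-/- libraries and the second among the WT libraries. The fold change against WT was -0.95 (SE 0.71, edgeR adjusted p = 0.490) with both. It was -3.48 without the 2 libraries that stood apart, a value that rests on replicate 2 alone.

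NPY1R with the ISL1 vector was at 21.4 and 20.8 CPM in WT, 35.7, 42.2 and 39.3 CPM in ISL1-/-, 60.4, 46.8 and 39.3 CPM in PAX6-/-, and 59.4 and 14.9 CPM in PDX1-/-. All ISL1-/- and PAX6-/- libraries were above WT, and PDX1-/- lay on both sides. The log2 fold changes were 0.89 (SE 0.38, edgeR adjusted p = 0.238), 1.21 (SE 0.39, adjusted p = 0.0987) and 0.82 (SE 0.41, adjusted p = 0.324). Without the 2 libraries that stood apart they were 0.87, 1.32 and 1.50. Those of ISL1-/- and PAX6-/- were called, at edgeR adjusted p of 0.00234 and 0.000220. The value of PDX1-/- then rests on replicate 2 alone. SSTR5 was at 12.6 and 10.6 CPM in WT and at 4.17, 3.82 and 6.75 CPM in PAX6-/-, without overlap, at -1.24 (SE 0.34, edgeR adjusted p = 0.0553). Leaving the same libraries out gave -1.56 (adjusted p = 0.000185).

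The effect of the vector itself was asked in each genotype. In WT edgeR called 0 of 10 receptors beside 0.027% of all genes, with 0 at an unadjusted p under 0.05 (beside 3.82%), 0 by DESeq2 (0.27%) and 0 by limma voom (2.01%). In ISL1-/- it called 0 beside 0.382%, with 3 at an unadjusted p under 0.05 (beside 7.61%), 1 by DESeq2 (1.49%) and 6 by limma voom (8.2%). In PAX6-/- it called 0 beside 0.355%, with 5 at an unadjusted p under 0.05 (beside 10.3%), 2 by DESeq2 (2.22%) and 7 by limma voom (9.96%). Leaving out the 2 libraries that stood apart, the 3 counts were 0, 3 and 4, beside 1.32%, 4.93% and 4.97%. Each of the receptors called that way was lower in the ISL1-labelled libraries.

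GLP1R and NPY1R are given because they were lower without overlap in WT, ISL1-/- and PAX6-/- alike. They were picked by these values, so the separation adds no support for an effect of the vector. Other receptors were lower without overlap in some of these genotypes, among them GCGR, FFAR1, SSTR2 and SSTR5 in WT and GIPR in PAX6-/-. With all libraries in the fit, edgeR called none of these differences. SSTR3 in WT and FFAR1 in ISL1-/- went the other way without overlap. The share of all genes that separated so was not computed. GLP1R was at 43.4 and 38.6 CPM in ISL1-labelled WT, at 37.2, 38.7 and 38.2 CPM in ISL1-/- and at 32.1, 30.8 and 6.54 CPM in PAX6-/-, where the last is the replicate 3 that stood apart. In each genotype all ISL1-labelled libraries were below all BFP-labelled ones. The log2 fold change of GLP1R was -0.36 (SE 0.47, edgeR adjusted p = 1.00) in WT, -0.76 (SE 0.39, adjusted p = 0.734) in ISL1-/- and -1.34 (SE 0.39, adjusted p = 0.201) in PAX6-/-. That of NPY1R was -0.39 (SE 0.41, adjusted p = 1.00), -1.24 (SE 0.34, adjusted p = 0.155) and -0.82 (SE 0.33, adjusted p = 0.415). The groups of NPY1R did not overlap in any of the 3 genotypes either. Without the 2 libraries that stood apart, GLP1R gave -0.79 (adjusted p = 0.00133) in ISL1-/- and -0.91 (adjusted p = 0.00263) in PAX6-/-, and NPY1R -1.27 (adjusted p = 0.000114) and -0.70 (adjusted p = 0.0289). Deviations of same-numbered libraries of both vectors had correlations of 0.155 to 0.391 in PAX6-/- and 0.099 to 0.293 in ISL1-/-. In these genotypes the fit with the replicate number as a block called 1 receptor each.

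SSTR1 and SSTR3 were also lower in the ISL1-labelled libraries of PAX6-/-, without overlap. There SSTR1 was at 23.1, 34.3 and 10.5 CPM and SSTR3 at 2.91, 3.19 and 1.05 CPM. The log2 fold change was -1.27 (SE 0.37, edgeR adjusted p = 0.207) for SSTR1 and -1.21 (SE 0.40, adjusted p = 0.279) for SSTR3, and without the 2 libraries that stood apart -0.94 (adjusted p = 0.0300) and -0.87 (adjusted p = 0.115). SSTR3 was at 2.12, 2.06 and 3.13 CPM in ISL1-labelled ISL1-/-, below all BFP-labelled libraries of that genotype (-1.01, SE 0.40, edgeR adjusted p = 0.477). In WT it was at 6.00 and 3.48 CPM, above the BFP-labelled libraries. SSTR2 was at 332 and 312 CPM in ISL1-labelled WT, 364, 366 and 394 CPM in ISL1-/- and 437, 364 and 808 CPM in PAX6-/-. FFAR1 was not called in ISL1-/- (0.72, SE 0.58, edgeR adjusted p = 0.981), and its ISL1-labelled libraries were all above the BFP-labelled ones.

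In PDX1-/- the ISL1 vector was associated with a call for 8 of 10 receptors, beside 12.5% of all genes, 8.19% higher and 4.33% lower, and these calls rest on 2 ISL1-labelled libraries that differ. DESeq2 also called 8, beside 20.5%, whereas limma voom called 0 beside 0.085% and edgeR on the 5 PDX1-/- libraries alone 0 beside 0%, with 8 at an unadjusted p under 0.05 in the fit of all libraries, beside 30.5%. FFAR1 and GCGR were higher, and GLP1R, GIPR, SSTR1, SSTR2, SSTR3 and NPY1R lower, in 2 and 6 receptors. The mean of the 3 BFP-labelled libraries was 87.0 CPM for GLP1R, 182 CPM for NPY1R and 749.8 CPM for SSTR2. In replicate 2 and replicate 4 of the ISL1-labelled libraries GLP1R was at 34.6 and 16.8 CPM, NPY1R at 59.4 and 14.9 CPM and SSTR2 at 383 and 322 CPM. For all 6 receptors called lower, both libraries were below the 3 BFP-labelled ones. This adds no support to the calls, which come from the same values. The share of all genes with such a separation was not computed.

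The edgeR fit gave -1.76 (SE 0.46, adjusted p = 0.0213) for GLP1R, -1.26 (SE 0.38, adjusted p = 0.0370) for GIPR, -1.63 (SE 0.44, adjusted p = 0.0236) for SSTR1, -1.09 (SE 0.30, adjusted p = 0.0246) for SSTR2 and -1.64 (SE 0.47, adjusted p = 0.0318) for SSTR3. For NPY1R it gave -2.29 (SE 0.41, adjusted p = 0.00238). Without replicate 4 NPY1R alone stayed past the threshold (-1.61, SE 0.30, adjusted p = 0.00590), and the other values were -1.33, -0.89, -1.08, -0.97 and -1.14 in the order given, at adjusted p from 0.204 to 0.407. The call of NPY1R was kept without any 1 of its 5 libraries, but not when only the 5 PDX1-/- libraries were fitted (-2.28, adjusted p = 0.270) or by limma voom (-2.50, adjusted p = 0.168). Without both libraries that stood apart, GLP1R, SSTR1, SSTR2 and NPY1R were called, 4 of 10 beside 8.92% of all genes.

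Of the receptors called higher in PDX1-/- with the ISL1 vector, FFAR1 was high in replicate 4 alone and GCGR in both libraries. FFAR1 was at 5.80 CPM in replicate 2, below the BFP-labelled libraries, and at 61.6 CPM in replicate 4. The fit gave 2.02 (SE 0.64, edgeR adjusted p = 0.0471) and reversed to -0.51 without replicate 4. GCGR was at 23.3 and 41.5 CPM, both above the BFP-labelled libraries, at 1.62 (SE 0.52, edgeR adjusted p = 0.0480) and 1.15 without replicate 4. With 1 BFP-labelled PDX1-/- library dropped at a time, GCGR passed the threshold in 0 of 3 fits. SSTR5, which was not called (0.63, SE 0.35, edgeR adjusted p = 0.234), was at 2.61 and 7.65 CPM on either side of them. The summed beta markers were at 306 CPM in replicate 2 and 25841 CPM in replicate 4, with 4 of 8 markers called higher and 1 lower between the vectors, beside 12.5% of all genes. Other sums were also higher in replicate 4. In the same order, the alpha sum was 14801 and 121577 CPM, the delta sum 421 and 1445 CPM and the hepatic sum 2634 and 10875 CPM. All of these were the highest of any library in replicate 4. The enterochromaffin sum was 1299 and 1423 CPM in these libraries, with 4 of 6 called lower than the BFP-labelled ones. Their part in the receptor values was not tested.

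**Figure D4:**
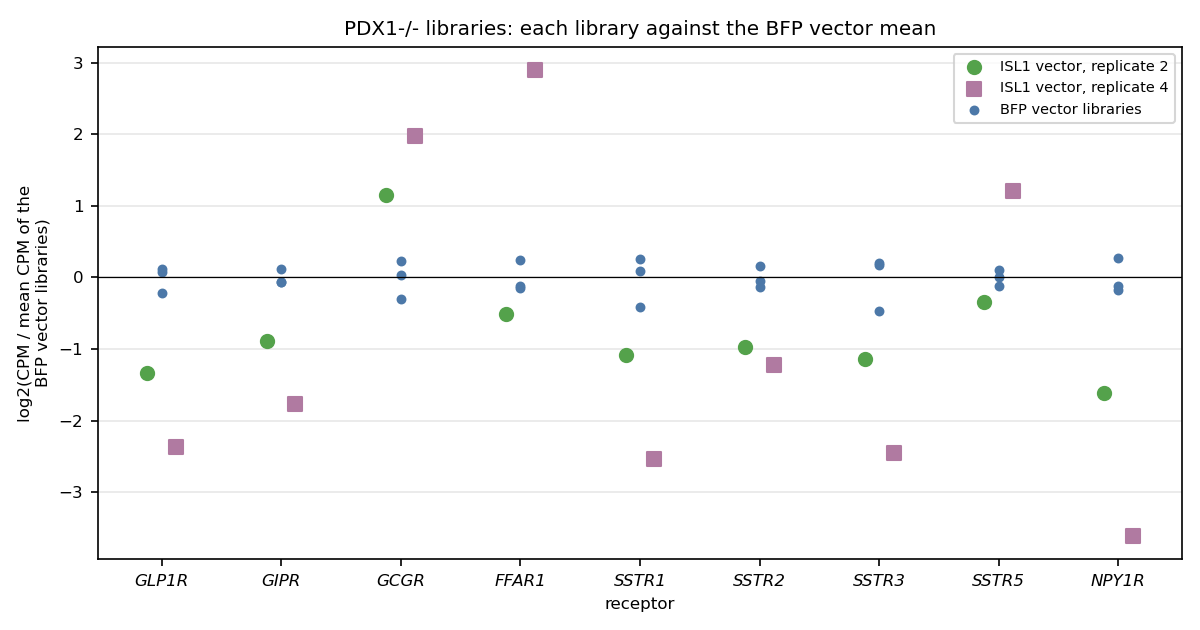
Log2 ratio of each PDX1-/- library to the mean of the 3 BFP-labelled libraries, for 9 receptors. Circles and squares are replicates 2 and 4 with the ISL1 vector and small points the BFP libraries; FFAR1 lies at -0.52 in replicate 2 and 2.89 in replicate 4.

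Whether the vector acted differently in a knockout than in WT was tested as an interaction. edgeR called 0 of 10 receptors in each of the 3 knockouts, beside 0.00386% of all genes in ISL1-/-, 0% in PAX6-/- and 1.19% in PDX1-/-. At an unadjusted p under 0.05 there were 1, 2 and 6 receptors, beside 2.97%, 3.54% and 16% of all genes. DESeq2 called 0, 0 and 2, beside 0.159%, 0.0309% and 5.17%, and limma voom 0 in each, beside 0.58%, 0.525% and 0.17%. For NPY1R in PDX1-/- the interaction was -1.90 (SE 0.56, edgeR adjusted p = 0.110). Without the 2 libraries that stood apart it was -1.19 (adjusted p = 0.0428), and GLP1R gave -0.94 (adjusted p = 0.0484), 2 of 10 beside 2.36% of all genes, whereas ISL1-/- and PAX6-/- had 0 beside 0.308% and 0.147%.

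The receptors fell into sets that varied together over the 21 libraries. Pearson's r of log2 CPM was 0.94 for SSTR1 with SSTR3, 0.90 for GLP1R with SSTR1 and 0.88 for GLP1R with SSTR3. NPY1R had r of 0.80 with SSTR2 and 0.77 with GIPR. GCGR and SSTR2 ran opposite, at -0.74, as did SSTR5 and NPY1R, at -0.66. These values describe 21 points that share groups, depth and the 2 libraries that stood apart, and they carry no test. Those 2 libraries held the lowest levels of GLP1R, SSTR1 and SSTR3, and r was not computed without them.

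**Figure D5:**
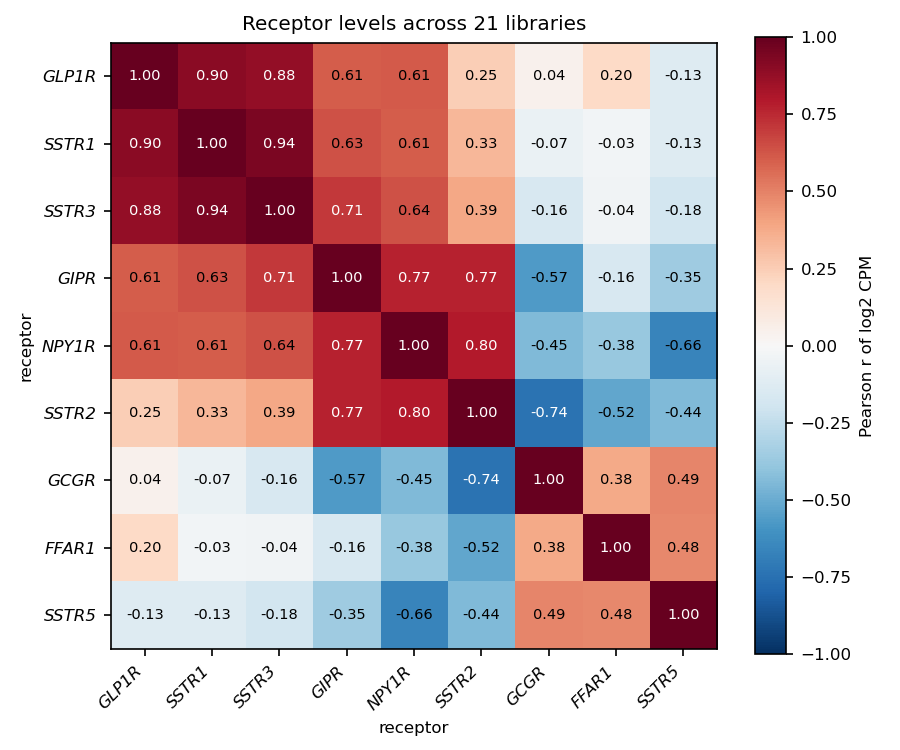
Pearson's r between the log2 CPM of 9 receptors over 21 libraries, as a colour scale from -1 to 1 with each value printed. GLP1R, SSTR1 and SSTR3 form a block at 0.88 to 0.94, and GCGR, FFAR1 and SSTR5 are at 0.38 to 0.49 with each other.

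Among tested genes with a mean of at least 5 CPM, those most like 8 of the receptors over the 21 libraries were named by r alone. FFAR1 was closest to NTNG1 (0.98), G6PC2 (0.94), the islet glucose-6-phosphatase, and PLIN3 (0.92). NPY1R was closest to CADM2 (0.97), BCAR3 (0.96) and THSD4 (0.96). SSTR5 was closest to the opioid receptor gene OPRD1 (0.89), MAMDC2 (0.87) and INS (0.85), the insulin gene. GIPR was closest to PSD (0.94) and GCGR to MYZAP (0.97). SSTR1 was closest to MTUS2 (0.97), SSTR2 to DYNC1I1 (0.97) and SSTR3 to ADAMTS2 (0.95).

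The ligands of these receptors changed with the BFP vector as well. Of 12 genes of ligands and their processing, 5 fell and 0 rose in ISL1-/-, 6 fell and 2 rose in PAX6-/-, and 3 fell and 1 rose in PDX1-/-, beside 5.59%, 5.51% and 9.68% of all genes. Values are log2 fold changes against WT. The median of the 12 was -1.90, -1.29 and -0.99, beside 0.02, 0.03 and 0.03 over all tested genes. GCG, which encodes glucagon and GLP-1, fell, with log2 fold changes of -9.03 (SE 1.16, edgeR adjusted p = 0.000211) in ISL1-/- and -10.06 (SE 1.21, adjusted p = 0.000151) in PAX6-/-, while its receptor genes GCGR and GLP1R had no call there. SST, somatostatin, fell, at -7.82 (SE 1.03, edgeR adjusted p = 0.000258) in ISL1-/- and -3.43 (SE 0.85, adjusted p = 0.0251) in PAX6-/-. PYY, a ligand of NPY1R, fell, at -6.78 (SE 1.02, edgeR adjusted p = 0.000766) and -7.78 (SE 1.08, adjusted p = 0.000576) in these knockouts. NPY itself was not called (ISL1-/- -2.30, SE 0.75, adjusted p = 0.0872). GIP fell, at -6.99 (SE 1.15, edgeR adjusted p = 0.00218) in PAX6-/- and -6.29 (SE 1.10, adjusted p = 0.00191) in PDX1-/-.

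Of 25 other peptide and lipid receptors 21 were tested. With the BFP vector 4 fell and 2 rose in ISL1-/-, 2 fell and 3 rose in PAX6-/-, and 2 fell and 4 rose in PDX1-/-, beside 5.59%, 5.51% and 9.68% of all genes. GPR119, a lipid-sensing Gs-coupled receptor of islet and gut endocrine cells, fell, at -4.42 (SE 0.29, edgeR adjusted p = 1.51e-07), -2.72 (SE 0.27, adjusted p = 2.35e-05) and -1.82 (SE 0.26, adjusted p = 0.000538) in the 3 knockouts. CASR, the calcium-sensing receptor, fell, at -2.50 (SE 0.58, edgeR adjusted p = 0.0160), -5.39 (SE 0.64, adjusted p = 0.000143) and -5.17 (SE 0.64, adjusted p = 0.000207). The fatty acid receptor FFAR4 fell, at -3.82 (SE 0.60, edgeR adjusted p = 0.00105) in ISL1-/- and rose by 2.12 (SE 0.58, adjusted p = 0.0393) in PAX6-/-, the knockout in which FFAR1 was lowest. FFAR2, a receptor for short-chain fatty acids, rose by 2.06 (SE 0.39, edgeR adjusted p = 0.00313) in PDX1-/-, as did the cholecystokinin receptor CCKBR by 1.68 (SE 0.27, adjusted p = 0.00101).

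Genes downstream of the receptors are read beside the 5.59%, 5.51% and 9.68% of all genes called in ISL1-/-, PAX6-/- and PDX1-/-. Of 26 genes of the stimulatory arm, 2 fell and 0 rose in ISL1-/-, 1 fell and 2 rose in PAX6-/-, and 0 fell and 2 rose in PDX1-/-, with medians of -0.14, -0.02 and 0.07. GNAS, which encodes the Gs alpha subunit that GLP1R, GIPR and GCGR use, fell, at -1.72 (SE 0.40, edgeR adjusted p = 0.0174) in ISL1-/- and at -1.86 (SE 0.41, adjusted p = 0.0126) in PAX6-/-. Its counts cover the whole gene, so the transcript of that subunit was not measured on its own. Of 26 tested genes of the inhibitory arm and desensitisation, 1 fell and 1 rose in ISL1-/-, 3 fell and 1 rose in PAX6-/-, and 4 fell and 2 rose in PDX1-/-. KCNJ3, a subunit of the potassium channel that Gi-coupled receptors open, rose by 1.64 (SE 0.42, edgeR adjusted p = 0.0283) in ISL1-/- and by 3.32 (SE 0.46, adjusted p = 0.000416) in PDX1-/-, where NPY1R was also highest. KCNJ6, another subunit, rose by 1.09 (SE 0.24, edgeR adjusted p = 0.00799) in PDX1-/-. PDE1C, which breaks down cyclic nucleotides, fell, at -1.58 (SE 0.31, adjusted p = 0.00709) in PAX6-/- and at -2.25 (SE 0.31, adjusted p = 0.000422) in PDX1-/-.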

How the data were processed

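RNA of 21 libraries was made into cDNA with SMART-Seq v4. The authors deposited raw read counts per gene. STAR 2.7.11b, featureCounts 2.1.1 and GRCh38 are named in the submitters' processing notes; annotation release, strand setting and treatment of multiply mapped reads are not given in the sources used here. 1 entry broken over 3 lines was left out, and the other 62699 genes all matched a symbol. Coordinates of receptors are those of GRCh38.

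Counts were scaled by TMM and tested with edgeR 4.0.16 in R 4.3.3 (quasi-likelihood F test, filterByExpr with 10 counts and a total of 15, a coefficient per group, common biological coefficient of variation 0.334). P-values were adjusted by Benjamini-Hochberg over 25884 genes, and the scripts were tested on simulated data. CPM were computed on TMM library sizes; log2 CPM use a prior count of 2. The replicates measure the spread between these libraries, which may be partly technical, and a count of 0 allows 3 counts, counting error only. Alternatives were DESeq2 1.42.0, limma 3.58.1 voom with quality weights, other scaling and filters, only the groups compared, replicate blocks and leaving out libraries.

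All 10 receptors were named throughout, with the targeted genes, the ligands, and up to 3 genes each way per list. The receptors and lists were chosen with earlier results of these data known. Libraries carry the number of the sample description, which differs from the title for 3 libraries. In the vector comparison, deviations of same-numbered libraries had correlations of 0.155, 0.391 and 0.333 in PAX6-/- and 0.183, 0.099 and 0.293 in ISL1-/-. They were -0.0394 in WT and -0.212 in PDX1-/-, with a single shared number each. For knockouts against WT with the BFP vector they ran from -0.163 to 0.210. The reported fit has no block for the number. The genes most like GLP1R are not reported here.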

Additional observations from a re-analysis of the deposited data

How the results depend on the processing

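The number of the 10 receptors called is given first as reported and then under each alternative that moved it by more than 1.5 times. Knockout minus WT with the BFP vector: PAX6-/- went from 2 to 6 with limma voom and to 4 with only the groups compared, with the block by description number and with PAX6-/- with ISL1 replicate 3 and PDX1-/- with ISL1 replicate 4 left out, here called both left out. PDX1-/- went from 4 to 9 with limma voom, with only the groups compared and with both left out. With the ISL1 vector, ISL1-/- went from 0 to 4 with limma voom, only the groups compared and both left out. PAX6-/- went from 1 to 3 with DESeq2, limma voom and both left out, and to 2 with no filter on low counts. For PDX1-/- with the ISL1 vector no count is given with both left out, which leaves replicate 2 alone there. For the vector, ISL1-/- went from 0 to 1 with DESeq2, 6 with limma voom and only the groups compared, and 3 with both left out. PAX6-/- went from 0 to 2 with DESeq2, 7 with limma voom and 4 with both left out. PDX1-/- went from 8 to 0 with limma voom and with only the groups compared. Between knockouts with the BFP vector, ISL1-/- minus PAX6-/- went from 1 to 3 with limma voom, and ISL1-/- minus PDX1-/- from 2 to 8 with limma voom and 6 with only the groups compared and both left out. PAX6-/- minus PDX1-/- went from 1 to 3 with DESeq2, 2 with no filter, 6 with limma voom and 5 with only the groups compared and both left out. The interaction in PDX1-/- went from 0 to 2 with DESeq2. RLE scaling changed no call of a single receptor in 160 values. The causes were not tested.

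The replicate block by description number gave 2 calls in ISL1-/- minus WT, 3 in PAX6-/- minus WT and 3 in PDX1-/- minus WT with the ISL1 vector, 1 for the vector in each knockout, and 3 in PAX6-/- minus PDX1-/-. For the vector in PDX1-/- the description block thus took the count from 8 to 1. Replicate 4 of that group is the only library with its number, so this block leaves replicate 2 to carry the value. The block by title number gave 2 in PAX6-/- minus WT with the ISL1 vector. For the vector, deviations of same-numbered libraries had correlations of 0.155 to 0.391 in PAX6-/- and 0.099 to 0.293 in ISL1-/-. Between knockouts and WT with the BFP vector they reached 0.210. What else the libraries of a number share was not tested. The vector effect on FFAR1 in PDX1-/- reversed to -0.75 with the block by description number, to -0.51 without PDX1-/- with ISL1 replicate 4 (2.88 without replicate 2) and to -0.49 with both left out.

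Leaving out 1 library at a time gave from 0 to 3 calls in ISL1-/- minus WT, from 1 to 4 in PAX6-/- minus WT and from 3 to 5 in PDX1-/- minus WT with the BFP vector. With the ISL1 vector the ranges were 0 to 2, 1 to 3 and 0 to 3. For the vector they were 0 to 1 in ISL1-/-, 0 to 2 in PAX6-/- and 1 to 9 in PDX1-/-. They were 0 to 3 for ISL1-/- minus PDX1-/-, 1 to 3 for PAX6-/- minus PDX1-/-, 0 to 7 for the interaction in PDX1-/- and 4 to 9 for any difference. Where the library left out came from a group of 2, that group kept a single library with no spread of its own. Depth limits GHSR, with at most 15 counts, and FFAR1 in PAX6-/-, with 2 to 26 counts.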
